A study of Mus musculus with 6 samples.

Results

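The SIBLING phosphoproteins (small integrin-binding ligand, N-linked glycoproteins) and 2 genes of phosphate handling that work beside them were followed in MC3T3-E1, the established mouse line of calvarial pre-osteoblasts, after exposure to PAKG–8diol–PEG(S) MPs. The 7 genes were taken by name: Ibsp, Spp1, Dmp1, Mepe and Dspp, which make up the family, and Phex and Fgf23. Of the 7, 5 had a row among the 26187 genes of the expression tables. Dspp and Fgf23 had none under their symbol or their gene ID and were not analysed here, so nothing can be said on whether either was expressed at day 2. Ibsp and Spp1 were abundant, and they moved in opposite directions with the MPs: Ibsp was 1.40-fold higher and Spp1 was 1.41-fold lower than in cells without MPs. Phex, Dmp1 and Mepe were all under the level at which genes were tested. They had an estimated 24 to 104, 9 to 44 and 2 to 5 fragments per library, in this order. The 3 PAKG values of Phex lay above its 3 OC values, while for Dmp1 and Mepe the groups overlapped.

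SIBLING proteins are acidic phosphoproteins that bone and tooth cells secrete into collagen matrix. The secreted kinase FAM20C phosphorylates them, their acidic and phosphorylated stretches bind calcium, and a short Arg-Gly-Asp (RGD) sequence lets cells attach to them through integrins. Bone sialoprotein (Ibsp) is known to start crystal formation, whereas osteopontin (Spp1) is known to restrain crystal growth as well as to serve as an adhesion protein and cytokine. Dmp1 and Mepe are best known from osteocytes, the cells buried in mineralized bone, and Dspp from the odontoblasts of dentin. Phex is a membrane endopeptidase of osteoblasts and osteocytes that degrades mineral-binding peptides of this family, and its loss raises FGF23, the osteocyte hormone that makes the kidney excrete phosphate.

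The PAKG group was cultured for 2 days with the MPs, particles made from a polymer of α-ketoglutarate (AKG), 1,8-octanediol and polyethylene glycol, at 30 μg/mL, and the OC group for the same time without MPs. Both groups were kept in the same osteoconductive (OC) medium, for which the sample labels give 10 β-glycerophosphate (a unit written as mm, read here as mM) and ascorbic acid-2-phosphate at 50 mg/mL, while the methods of the study give other amounts. Each group holds 3 samples, numbered 1 to 3. The study cultured its cell experiments in triplicate, but whether the 3 libraries of a group came from separate wells or from repeat experiments is not given in the sources used here, so the p-values below reflect variation among these 6 samples alone, and that variation may be technical. Levels are the authors' FPKM (fragments per kilobase of transcript, scaled to the mapped fragments of the library), which allow comparison of levels between genes of different length. They summed to 289675.9 to 325818.2 per library, and 1 fragment on a transcript of 1 kb was worth an estimated 0.0242 to 0.0308 FPKM. In a principal component analysis the groups parted along the main axis (43.9% of the variance), while the libraries numbered 2, in PAKG as in OC, lay apart from the others along the next axis (25.1%). Genes averaging 0.5 FPKM or more over the libraries, 12590 in all, were tested with limma on log2(FPKM + 0.1), a scale that understates the change of low genes. The thresholds of the study were an adjusted p under 0.05 together with a fold change of at least 2. Genes past the adjusted p alone are given as well, since both abundant genes changed by less than that fold.

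The 5 family genes lie one after another on chromosome 5 (GRCm38), on the plus strand, over 270.3 kb from Dspp (104170712 to 104180127) through Dmp1 (104202613 to 104214102), Ibsp (104299171 to 104311469) and Mepe (104325329 to 104338611) to Spp1 (104435118 to 104441050). Phex lies on the minus strand of chromosome X (157162075 to 157415312) and Fgf23 on the plus strand of chromosome 6 (127072902 to 127081408). All 5 family genes encode the integrin-binding sequence, so the codons around it are printed here from the GENCODE transcripts, 33 bases each, with the 3 codons for Arg, Gly and Asp in capitals.
Ibsp: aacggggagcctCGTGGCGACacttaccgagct
Spp1: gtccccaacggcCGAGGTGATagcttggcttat
Dmp1: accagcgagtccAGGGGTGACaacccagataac
Mepe: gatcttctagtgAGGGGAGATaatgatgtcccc
Dspp: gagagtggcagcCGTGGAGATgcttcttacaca
Each family gene holds 1 such triplet in frame. In Ibsp it starts at codon 293 of 324, close to the end of the protein, in exon 7 of 7 (chr5:104310463-104310495). In Spp1 it starts at codon 144 of 294, near the middle, in exon 6 of 7 (chr5:104439469-104439501). The stretches of Dmp1 (chr5:104212495-104212527, exon 6 of 6) and Dspp (chr5:104177195-104177227, exon 5 of 5) and that of Mepe (chr5:104337530-104337562, exon 3 of 3) lie in the last exon of the gene, as that of Ibsp does. Phex, with 749 codons in 22 exons, has no such triplet. The triplet is not particular to the family, since Fgf23 also holds 1 in frame, at codon 231 of 251. The coding sequences also showed how the acidic character differs within the family. Codons for Asp and Glu made up 24.1% of Ibsp, 23.1% of Spp1, 28.0% of Dmp1 and 25.3% of Dspp, against 10.7% of Mepe and 11.7% of Phex. Ibsp carried the longest run of Glu codons among the 7 genes, 11 in a row, and Spp1 the longest run of Asp codons, 10 in a row. The Ser-x-Glu triplet that FAM20C recognises occurred 8 times in Ibsp, 20 times in Spp1, 40 times in Dmp1, 7 times in Mepe and 10 times in Dspp.

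The sequence before the start site of Spp1 is shown because Spp1 was the most abundant gene of the family and its RNA fell. In the 250 bases before the RefSeq start of a gene (GRCm38.p6), both strands were searched for TGTGGT (the core bound by RUNX factors), TAATTA (a homeodomain core), CCAAT, the TATA box TATAAA, and the AP-1 site TGANTCA. None of the matches given here overlaps another. The 250 bases before the first Spp1 start (chr5:104434861-104435110) are printed with the matches in capitals: first TATAAA on the forward strand, then the RUNX core and last CCAAT, the latter pair on the reverse strand. They begin at -211, -128 and -46 from that start, in this order.
Spp1: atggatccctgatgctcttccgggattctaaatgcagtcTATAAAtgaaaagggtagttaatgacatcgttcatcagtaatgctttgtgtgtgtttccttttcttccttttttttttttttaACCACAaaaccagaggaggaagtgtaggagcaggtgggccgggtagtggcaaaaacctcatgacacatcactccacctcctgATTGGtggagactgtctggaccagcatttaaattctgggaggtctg
The window before the first of the 2 Spp1 starts thus held a RUNX core, whereas that before the second start, at 104436192, held none and had 1 match, TAATTA on the forward strand. A RUNX core occurred in 14.0% of all 32851 RefSeq promoter windows of this length, CCAAT in 33.8%, TATAAA in 12.4%, TAATTA in 4.8% and TGANTCA in 6.7%. A match is only a run of letters and says nothing on whether a factor was bound there. Mepe held 2 RUNX cores, 1 of the 2 Dmp1 starts held 1, and the windows of Phex and Fgf23 held none of the 5 motifs.

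**Figure D1:**
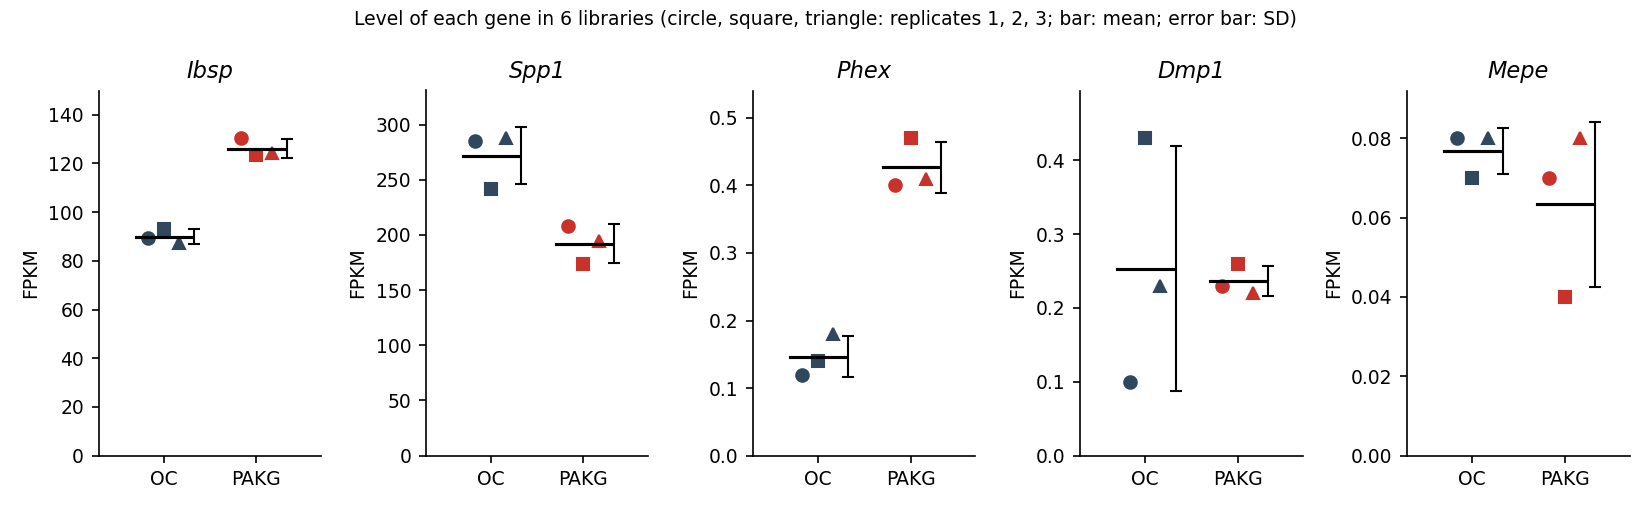
FPKM of the 5 genes with a row in each of the 6 libraries, OC in blue and PAKG in red, each panel with its own scale from 0; the horizontal bar is the mean, the error bar the SD (n = 3), and circle, square and triangle stand for replicates 1, 2 and 3. For Ibsp and Phex all 3 PAKG values lie above all 3 OC values, for Spp1 they lie below, and for Dmp1 and Mepe the groups overlap.

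Ibsp (ENSMUSG00000029306) encodes bone sialoprotein. Its level was 89.27, 93.22 and 87.26 FPKM in OC replicates 1 to 3 and 130.39, 123.40 and 124.42 FPKM in PAKG replicates 1 to 3. All 3 PAKG libraries lay above all 3 OC libraries, and the gap between the groups exceeded the SD of either. The mean rose from 89.9 ± 3.03 to 126.1 ± 3.78 FPKM (SD, n = 3 each), a log2 fold change of 0.49 with a standard error of 0.07, a 95% confidence interval of 0.34 to 0.64 and a limma adjusted p of 0.00313. Ibsp moved from rank 471 to rank 323 among the genes of the tables when ordered by mean FPKM. The estimated 5994 to 11142 fragments per library leave little counting error at this level. At an adjusted p under 0.05, 5.97% of the genes tested were higher in PAKG, and Ibsp was one of them. In bulk samples, more cells that express a gene and more RNA per cell cannot be told apart, and the same holds for fewer cells and less RNA. Ibsp did not reach the fold change of 2 that the study required in its RNA-Seq. That fold change together with the adjusted p was met by 1.45% of the genes tested and by 0 of the 2 genes of this family that were tested. By quantitative PCR after a longer culture, the study gave bone sialoprotein RNA as a further marker of the pro-osteoblastic effect of these MPs. The rise was called under each of the 15 alternative settings, with log2 fold changes of 0.46 to 0.53 and adjusted p of 0.00183 to 0.0243.

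Spp1 (ENSMUSG00000029304) encodes osteopontin and was the most abundant gene of the family in each of the 6 libraries. Its level was 285.27, 241.94 and 287.68 FPKM in OC and 208.43, 173.22 and 194.85 FPKM in PAKG, replicates 1 to 3 in this order. Replicate 2 was the lowest library of both groups, yet the lowest OC value was above the highest PAKG value. The mean fell from 271.6 ± 25.7 to 192.2 ± 17.8 FPKM (SD, n = 3 each), a log2 fold change of -0.50 with a standard error of 0.10, a 95% confidence interval of -0.74 to -0.26 and a limma adjusted p of 0.0186. Spp1 went from rank 143 to rank 219 by mean FPKM. At this threshold 8.73% of the genes tested were lower in PAKG. The direction held under each of the 15 alternatives (-0.58 to -0.43), but the adjusted p rose above 0.05 under 4 of them: 0.0581 when no gene was filtered out, 0.0714 when OC replicate 1 was left out, 0.0827 when OC replicate 3 was, and 0.0714 when PAKG replicate 3 was. With both libraries numbered 2 left out the log2 fold change was -0.51, with an adjusted p of 0.00486.

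The opposite changes of the 2 genes shifted the make-up of the family's RNA. Spp1 stood at 3.20, 2.60 and 3.30 times the FPKM of Ibsp in the OC libraries and at 1.60, 1.40 and 1.57 times in the PAKG libraries. The mean ratio was 3.03 ± 0.379 in OC and 1.52 ± 0.108 in PAKG (SD, n = 3 each), and no library of one group came near the other group. Ibsp made up 23.8%, 27.8% and 23.3% of the FPKM summed over Ibsp, Spp1, Dmp1 and Mepe in OC and 38.4%, 41.6% and 38.9% in PAKG. The difference between the mean shares was 14.7 percentage points, and it was 13.7 to 16.1 when each library was left out in turn. A share within a library does not depend on how libraries are scaled to each other. Replicate 2 had the highest Ibsp share of both groups. The summed FPKM of the 4 genes was 374.72, 335.66 and 375.25 in OC and 339.12, 296.92 and 319.57 in PAKG. The ranges of the groups overlapped, but in each pair with the same replicate number the PAKG sum was the lower, by 35.6, 38.7 and 55.7 FPKM. What the replicate number marks is not given in the sources used here, so this pairing is an assumption. No p is given for these shares, as both genes were tested singly above.

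**Figure D2:**
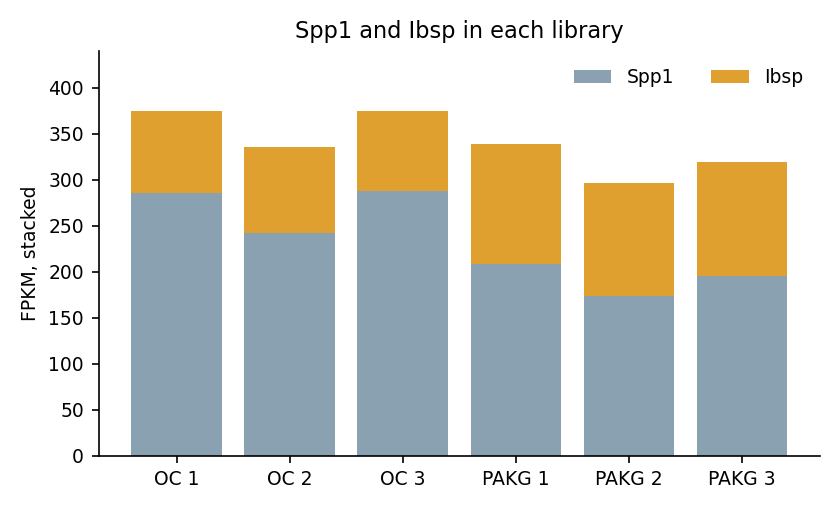
FPKM of Spp1 (grey-blue, from 0) and Ibsp (orange, stacked on top) in each library; the bar height is their sum, and Dmp1 and Mepe are too low to be drawn. The orange part is larger in each of the 3 PAKG bars, at 38.4% to 41.6% of the family's FPKM, than in the 3 OC bars, at 23.3% to 27.8%.

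Phex (ENSMUSG00000057457) was under the level at which genes were tested, with a mean of 0.287 FPKM over the 6 libraries. Its level was 0.12, 0.14 and 0.18 FPKM in OC and 0.40, 0.47 and 0.41 FPKM in PAKG. All 3 PAKG values were above the highest OC value. The group means were 0.147 ± 0.0306 and 0.427 ± 0.0379 FPKM (SD, n = 3 each), a ratio of 2.91, the largest among the 5 genes. On its longest transcript of 6265 bases these values amount to an estimated 24, 32 and 41 fragments in OC and 104, 99 and 83 in PAKG. An exact permutation test of the difference of means, 2-sided, gave p = 0.1, the smallest value that 3 against 3 samples can give. Among the 13152 genes under the filter, 7.63% had groups that did not overlap. In the alternative fit with no filter, where 2.11% of 25742 genes were called higher and 20.2% had groups that did not overlap, the log2 fold change of Phex was 1.10 with a standard error of 0.22, a 95% confidence interval of 0.59 to 1.61 and an adjusted p of 0.0379. That call did not hold generally. The adjusted p was under 0.05 in 4 of 12 further settings and ranged from 0.0103 with a pseudocount of 1 to 0.124 with both libraries numbered 2 left out. It was 0.0618 with the replicate block and 0.078 to 0.121 with any single library left out, whereas the log2 fold change stayed between 1.02 and 1.19 except with a pseudocount of 1, where it was 0.32.

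**Figure D3:**
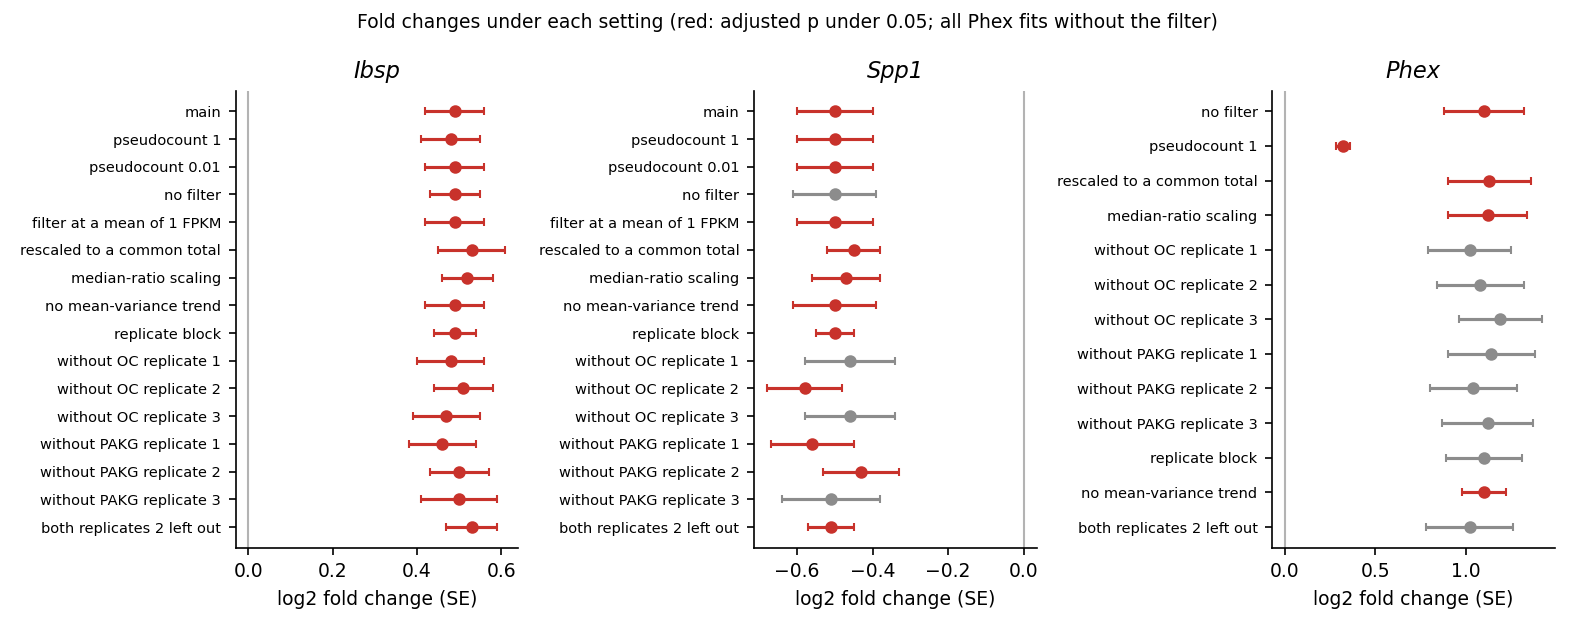
Log2 fold change of Ibsp, Spp1 and Phex, PAKG against OC, with its standard error, under the main and alternative settings; red marks an adjusted p under 0.05, grey one above, and the Phex fits all run with no filter. The Ibsp points are red throughout, Spp1 keeps its direction with 4 grey points, and the Phex points are grey whenever a library is left out.

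Dmp1 (ENSMUSG00000029307), a matrix and nuclear protein that marks osteocytes, was at 0.10, 0.43 and 0.23 FPKM in OC and at 0.23, 0.26 and 0.22 FPKM in PAKG. The OC values enclosed the PAKG values, and both the lowest and the highest library belonged to OC. The group means were 0.253 ± 0.166 and 0.237 ± 0.0208 FPKM (SD, n = 3 each), with an exact permutation p of 0.9. These values amount to an estimated 9 to 44 fragments per library. The fit with no filter gave a log2 difference of 0.04 with a 95% confidence interval of -0.85 to 0.93. With the OC values spread this widely, no change was detectable.

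Mepe (ENSMUSG00000053863), whose cleaved C-terminal peptide binds mineral and is a substrate of the Phex enzyme, was the lowest of the 5 genes. It was at 0.08, 0.07 and 0.08 FPKM in OC and 0.07, 0.04 and 0.08 FPKM in PAKG, an estimated 2 to 5 fragments per library. With an exact permutation p of 0.7 and a 95% confidence interval of -0.52 to 0.28 for the log2 difference, no change was detectable at this depth. None of the 5 genes was listed at 0 in any library, but for Mepe the values differ by single fragments.

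Taking the 5 genes by level, Spp1 came first and Ibsp second in each library. Phex, Dmp1 and Mepe followed at less than 0.5 FPKM, with Phex above Dmp1 in the 3 PAKG libraries. In OC, Phex was above Dmp1 in replicate 1 and below it in replicates 2 and 3, and the spread of Dmp1 did not separate the pair. Mepe was below both Dmp1 and Phex in all 6 libraries. Groups that did not overlap were seen in 3 of the 5 genes, of which 2 were tested, against 33.4% of the genes tested and 20.2% of the 25742 genes not listed at 0 throughout. With so few genes these counts are a description.

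The position of the family in 1 block of chromosome 5 allowed the surrounding genes to be read beside it. Within 500 kb of the span from Dspp to Spp1, GENCODE lists 11 other protein-coding genes, of which 9 had a row and 6 were tested. The limma test called 0 of the 6, and 0 had an unadjusted p under 0.05 (1, Sparcl1, in the fit with no filter). Upstream, Aff1, Klhl8, Hsd17b11 and Nudt9 had log2 fold changes of 0.23, 0.13, 0.04 and 0.06, with adjusted p of 0.41 to 0.725. Sparcl1, the relative of SPARC that is next to Dspp, was at 30.4 ± 2.11 FPKM in OC and 34.1 ± 0.702 FPKM in PAKG, with a log2 fold change of 0.17 and an adjusted p of 0.178. Pkd2, the gene that follows Spp1 and encodes polycystin 2, had a log2 fold change of -0.10 with an adjusted p of 0.597. Ibsp and Spp1 are 123.6 kb apart, with Mepe between them, and were the only 2 genes of the interval that were called. Within the same distance of Fgf23, which was not analysed here, Ccnd2 and Rad51ap1 were called lower. Their log2 fold changes were -1.13 and -0.61, with limma adjusted p of 0.00126 and 0.00174. The other tested neighbours of Fgf23, and those of Phex, were not called.

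**Figure D4:**
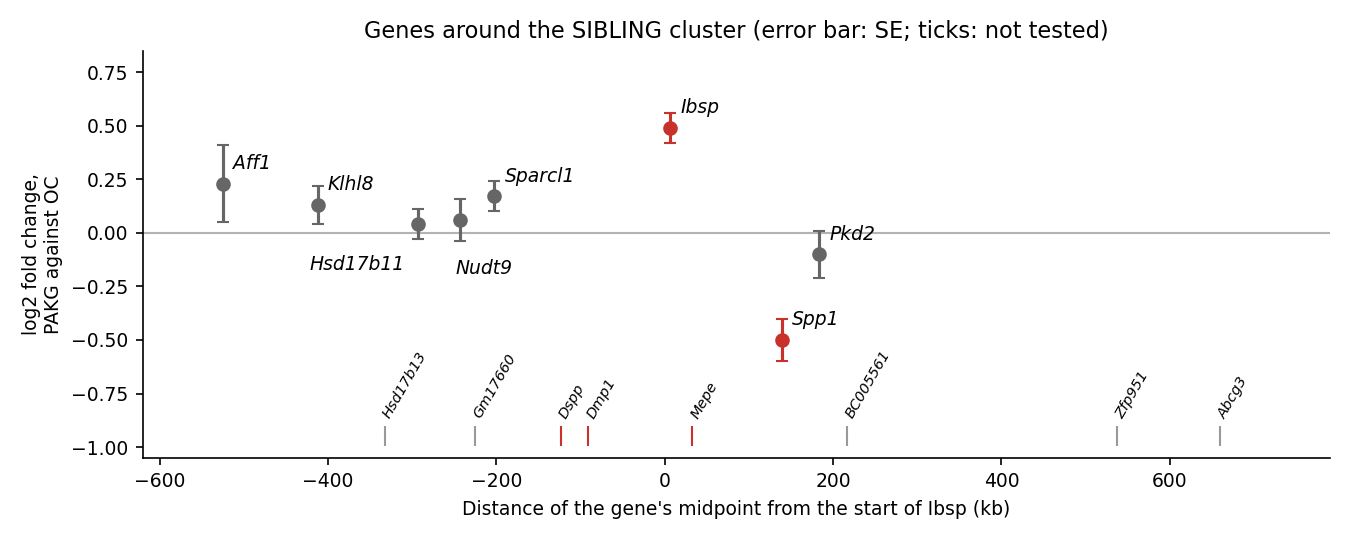
Log2 fold change, PAKG against OC, of the genes around the SIBLING cluster by the distance of their midpoint from the start of Ibsp in kb; the error bar is the SE, red points have an adjusted p under 0.05, grey points do not, and ticks at the bottom mark genes that were not tested, in red for members of the family. Ibsp at 0.49 and Spp1 at -0.50 stand apart from the 6 tested neighbours, which lie between -0.10 and 0.23.

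Genes whose products act on the SIBLING proteins were read next, from lists written from general knowledge. The list of kinases, proteases and other partners held 20 genes, of which 18 had a row and 14 were tested. At an adjusted p under 0.05, 7 were higher and 1 was lower in PAKG, and 6 were not called, with a median log2 fold change of 0.38 beside -0.03 over all genes tested. For this and the further lists, the shares over all genes tested, 5.97% higher and 8.73% lower, are the background, and the lists were not tested as groups. The lists share some genes, such as Fam20c, Mmp14, Cd44 and Sparc, so the counts of different lists are not separate. Only Tmem119, a transmembrane protein of osteoblasts that is neither a kinase nor a protease, passed both thresholds, and it rose from 36.0 ± 2.55 to 100.3 ± 2.11 FPKM, a difference of 1.48 on the log2 scale (standard error 0.07, adjusted p = 8.32e-05). Fam20c, the kinase that phosphorylates SIBLING proteins, rose from 4.37 ± 0.0954 to 5.34 ± 0.242 FPKM, or by 0.28 on the log2 scale (adjusted p = 0.044, and 0.0752 with no filter). Bmp1, the protease that cleaves Dmp1 and Dspp as well as procollagen, rose from 11.3 ± 0.667 to 18.2 ± 0.692 FPKM, or by 0.69 on the log2 scale (adjusted p = 0.00126). Mmp2, a gelatinase that binds bone sialoprotein, rose from 393.8 ± 17.0 to 584.1 ± 50.0 FPKM, or by 0.57 on the log2 scale (adjusted p = 0.00646). The member that fell was Tgm2, the transglutaminase that crosslinks osteopontin, from 4.34 ± 0.326 to 3.21 ± 0.119 FPKM, a difference of -0.42 on the log2 scale (adjusted p = 0.0195).

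For the receptors, of 12 listed integrin subunits and Cd44, all had a row and 8 were tested, 1 was higher, 1 was lower and 6 were not called, with a median log2 fold change of -0.11. Itga9, a subunit that binds osteopontin at a site next to the RGD sequence, rose from 1.48 ± 0.276 to 3.18 ± 0.275 FPKM, a difference of 1.07 on the log2 scale (standard error 0.15, adjusted p = 0.00346). Cd44, a hyaluronan receptor that also binds osteopontin, fell from 70.3 ± 4.57 to 49.9 ± 4.47 FPKM, a difference of -0.50 on the log2 scale (adjusted p = 0.00993). The subunits of the αvβ3 receptor for RGD were not called: Itgav was at 16.6 ± 2.93 and 15.0 ± 2.36 FPKM (adjusted p = 0.583) and Itgb3 at 4.42 ± 0.504 and 4.75 ± 0.699 FPKM (adjusted p = 0.677).

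For Fgf23, which was not analysed here, the genes that process it or receive its signal gave 8 tested of 13 listed, with 5 higher, 1 lower and 2 not called and a median log2 fold change of 0.30. Fgfr3, a receptor for FGFs, passed both thresholds and rose from 4.64 ± 0.526 to 19.2 ± 1.71 FPKM, a difference of 2.03 on the log2 scale (standard error 0.11, adjusted p = 0.00013). The receptor gene Fgfr1 was the 1 that was lower, falling from 49.4 ± 3.41 to 40.8 ± 1.20 FPKM. Its difference was -0.27 on the log2 scale (limma adjusted p = 0.0473, and 0.0779 with no filter). Kl, also listed, had no row and was not analysed here. Of this list only 2 to 4 genes were called when any single library was left out, 2 with no filter and 3 after rescaling to a common total. Galnt3, the glycosyltransferase that protects FGF23 from cleavage, stood at 0.153 ± 0.0577 FPKM in OC and 0.193 ± 0.0416 FPKM in PAKG and was under the filter.

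Osteocyte markers other than the 7 genes were divided, with 12 tested of 15 listed, 4 higher, 4 lower, 4 not called and a median log2 fold change of 0.11. Sost, also listed, had no row and was not analysed here. Pth1r, the receptor for parathyroid hormone, rose from 56.8 ± 4.32 to 134.1 ± 6.65 FPKM, a difference of 1.24 on the log2 scale (adjusted p = 0.000278). Tnfrsf11b, which encodes the decoy receptor osteoprotegerin, rose from 15.5 ± 0.924 to 33.6 ± 2.55 FPKM, a difference of 1.11 on the log2 scale (adjusted p = 0.00037). Ackr3, a scavenging chemokine receptor, fell from 2.52 ± 0.0889 to 1.20 ± 0.192 FPKM, a difference of -1.02 on the log2 scale (adjusted p = 0.00273). Pdpn, the podoplanin of early osteocyte processes, fell from 46.5 ± 1.17 to 30.8 ± 1.25 FPKM, a difference of -0.59 on the log2 scale (adjusted p = 0.00134).

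Transcription factors with known action on SIBLING genes numbered 13 tested of 17 listed, with 5 higher, 2 lower and 6 not called and a median log2 fold change of 0.12. Sp7 (osterix), an osteoblast factor, rose from 34.1 ± 1.05 to 87.2 ± 3.41 FPKM, a difference of 1.35 on the log2 scale (standard error 0.07, adjusted p = 7.83e-05). Runx2, which binds the RUNX core searched for above, rose from 15.6 ± 1.10 to 27.1 ± 1.94 FPKM, a difference of 0.79 on the log2 scale (adjusted p = 0.00122), and Dlx5, a homeodomain factor, from 15.2 ± 1.10 to 27.6 ± 2.73 FPKM, a difference of 0.86 on the log2 scale (adjusted p = 0.00154). The 2 that fell were Vdr, the vitamin D receptor, with a log2 fold change of -0.45 and an adjusted p of 0.0354, and Ets1, at -0.49 with an adjusted p of 0.027. With no filter their adjusted p was 0.0774 and 0.0702. The number called in this list was 4 without OC replicate 3, without PAKG replicate 1 or without PAKG replicate 3, and all 4 were then higher.

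Among the other matrix and mineralization genes, 18 of 20 listed were tested, with 11 higher, 0 lower and 7 not called by limma (12 higher and 1 lower with the replicate block) and a median log2 fold change of 0.58. The fold change of 2 was also passed by 8 of the 11. Bglap (osteocalcin) rose from 0.853 ± 0.176 to 19.4 ± 1.63 FPKM, a difference of 4.36 on the log2 scale (adjusted p = 1.89e-05). Bglap2 gave 3.96, and since the pair are near-identical copies, how their fragments were divided is uncertain. Phospho1, the phosphatase of matrix vesicles, rose from 5.39 ± 0.188 to 34.9 ± 3.50 FPKM, a difference of 2.67 on the log2 scale (adjusted p = 1.89e-05), and Omd, the keratan sulfate proteoglycan osteomodulin, from 16.3 ± 0.907 to 52.1 ± 0.791 FPKM, a difference of 1.68 on the log2 scale (adjusted p = 3.71e-05). The difference of Ibsp, at a log2 fold change of 0.49, was below the median of this list. Of the other secretory calcium-binding phosphoproteins, relatives of the SIBLING genes, 12 were listed, 3 had a row and 2 were tested: Sparc (osteonectin) rose from 989.8 ± 31.7 to 1534 ± 52.4 FPKM, a difference of 0.63 on the log2 scale (adjusted p = 0.003, and 0.0804 with no filter), and Sparcl1 is given above.

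Markers bore on the label of the cells and on other sources of Spp1. All 8 osteoblast lineage markers were present and 6 were higher in PAKG. Of 4 mature osteocyte markers only Dmp1 and Mepe had a row, and they summed to 0.18 to 0.50 FPKM in OC and to 0.30 FPKM in each PAKG library. Macrophages and other blood cells can make Spp1: 4 of their 7 markers had a row and summed to 9.21 to 12.08 FPKM in OC and 16.0 to 17.57 FPKM in PAKG. Nearly all of this was Lyz2, which rose with a log2 fold change of 0.64 (adjusted p = 0.012), while Ptprc, which defines blood cells, was at 0.01 FPKM in 1 OC library and listed at 0 in the other 5. Csf1r, the receptor of macrophage colony-stimulating factor, was under the filter at 0.09, 0.06 and 0.12 FPKM in OC and at 0.29, 0.22 and 0.28 FPKM in PAKG, without overlap (adjusted p = 0.0673 in the fit with no filter), and the part of these markers in the change of Spp1 was not tested. Of 6 osteoclast markers, 5 had a row and summed to 85.15 to 97.96 FPKM in OC and 102.3 to 119.1 FPKM in PAKG, almost all of it Ctsk, with Calcr listed at 0 throughout. Chondrocyte markers, 4 of 5 with a row, summed to 17.9 to 20.36 FPKM in OC and 58.73 to 61.44 FPKM in PAKG. Nearly all of this was Col2a1 (means of 11.1 in OC and 46.2 FPKM in PAKG) and Sox9 (7.67 and 13.4 FPKM), while Matn1 and Col10a1 were under the filter. The part of the chondrocyte markers in the change of Ibsp was not tested. Odontoblast markers gave only Dmp1, and the 5 epithelial and endothelial markers summed to at most 0.48 FPKM in any library.

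Over the 6 libraries, the genes whose log2(FPKM + 0.1) ran most like that of Ibsp, among 9175 genes averaging 2 FPKM or more, were Me1, Col27a1 and Tm7sf3, with Pearson's r of 0.9974, 0.9972 and 0.9971. For Spp1 they were Rbbp7, Acot9 and Maoa, with r of 0.9988, 0.9972 and 0.9969. As many as 319 genes had an r over 0.95 with Ibsp and 334 with Spp1. All points share the same 6 libraries and the difference between the groups, so the values are a description only.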

How the data were processed

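Poly(A) RNA from 6 samples was sequenced. For each library the authors deposited a table of FPKM, rounded to 2 decimals. Per the submitters' processing notes, the build was GRCm38 and the tools included HISAT2, StringTie, DESeq2, cutadapt and FastQC, with versions not given in the sources used here. As these values are no counts, count models were left out; whole reads were not recovered, and fragments are estimates from low values of short genes.

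GENCODE M21, the source of coordinates and coding sequences, held 99.76% of the IDs, and 445 genes were listed at 0 in all 6 libraries. Values were compared as log2(FPKM + 0.1) with limma 3.58.1 in R 4.3.3 (lmFit, eBayes with trend; 4 residual and 3.54 prior degrees of freedom), 2-sided, with Benjamini-Hochberg adjustment over 12590 genes. Figures used Python 3.11.15 and matplotlib 3.10.9. No protein table was used here, and the sequence before the start of Ibsp is not reported here.

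The members and lists were chosen with earlier results of these data known. From each list, up to 4 genes past both thresholds with the smallest adjusted p are named, otherwise up to 2 past the adjusted p; the other list genes were named for their known roles after their values were seen. Likeness took the 3 genes with the largest Pearson's r.

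Samples with the same replicate number deviated together over the tested genes (r of 0.24, 0.43 and 0.192, against -0.312 to 0.138 for other pairs), above the minimum of 0.1. PAKG replicate 3 with OC replicate 1, at 0.138, passed that minimum as well. Deviations were taken from the mean of each group, so the pairs are not independent. No source says what the replicate number marks, and it was fitted as a replicate block in an alternative. Other alternatives were pseudocounts of 1 and 0.01, a filter at 1 FPKM, no filter, scaling to a common total, median-ratio scaling, no trend and each library left out. Chosen after seeing the data were leaving out both libraries numbered 2 and combining the fit with no filter with other alternatives. The pseudocount of 0.01 and the filter at 1 FPKM were not among those combined. On simulated data with 12590 genes, 50 genes per size were given log2 fold changes of 0.5, 0.75, 1 and 1.5. The adjusted p alone found 30%, 54%, 74% and 86% of them, and 3 of 125 calls were unchanged genes. The simulated libraries varied independently, whereas the real ones with the same number deviated together. Far fewer genes were changed, 200, than were called in the real data, so these rates may not hold for the real data.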

Additional observations from a re-analysis of the deposited data

How the results depend on the processing

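Ibsp kept its direction and its call under each of the 15 alternatives. Spp1 kept its direction under all 15 and its call under 11; with no filter it was at -0.50 (adjusted p = 0.0581), and with each library left out it ranged from -0.58 to -0.43 (adjusted p 0.015 to 0.0827). With the replicate block, Ibsp was at 0.49 (adjusted p = 0.00211) and Spp1 at -0.50 (adjusted p = 0.00184); the block ended the call of Phex (adjusted p = 0.0618) and changed no other call of the 5 genes. With a pseudocount of 1, the log2 difference of Phex was 0.32 and 90 genes, not 182, passed both thresholds. At the adjusted p alone, 1850 genes were called, 3711 with the block and 831 to 2227 with each library left out. The FGF23 list had 6 genes called, 2 with no filter, 3 after rescaling to a common total and 2 to 4 with each library left out. With each library left out, 5 to 9 partners (8 with all 6 libraries), 1 to 3 receptors (2) and 4 to 8 transcription factors (7) were called, and with no filter 0 of the other secretory calcium-binding phosphoproteins (1). The median log2 fold change of all genes stayed between -0.04 and 0.01. The difference of Dmp1 ranged from -0.31 to 0.39 and changed sign, and that of Mepe from -0.20 to -0.01, without a call for either. The cause of these shifts was not tested.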
